A study of Mus musculus with 7 samples.

Results

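The genes described here are 32 mouse genes that were already expressed in TRAMP-C1 cells with an empty vector and at least doubled with a PAX8-NFE2L2 fusion. A gene entered when it had 5 CPM (the count of a gene scaled to 1000000 gene reads) or more in each of the 3 empty vector libraries, and when its lowest fusion CPM was at least 2 times its highest empty vector CPM. Of 46603 gene rows 10496 met the first condition and 53 met both, which is 0.505% of the 10496. From these 53, 21 were set aside by symbol, since they belong to families such as the glutathione transferases, the carbonyl reductases, the CXC chemokines and the ABC transporters, or are single antioxidant, matrix and transport genes. Because the fusion and empty vector values chose the genes, their difference between these groups is a description and not a finding, and no test of it is read as support.

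TRAMP-C1 is a prostate tumour line from a TRAMP transgenic C57BL/6 mouse, labelled prostate epithelial. The fusion cells were transduced with a lentivirus carrying the fusion (3 libraries), the control cells with the matching empty vector (3 libraries), and 1 further library is labelled WT with no vector named. Virus stayed on the transduced cells for 12 h, and they then grew for 24 h more in new medium. No label says whether the replicates were separate cultures, whether transduced cells were selected or which promoter drives the fusion.

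NRF2, the protein encoded by Nfe2l2, is a transcription factor that is held at low levels by KEAP1, which marks it for degradation. When it escapes KEAP1 it enters the nucleus, pairs with small MAF proteins and binds antioxidant response elements beside genes of detoxification, glutathione and NADPH metabolism. PAX8 directs the development of thyroid and kidney as a transcription factor. The labels do not say which exons of either gene the fusion joins.

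Pax8 lay at 6.4, 8.46 and 5.65 CPM in fusion replicates 1, 2 and 3, against 0.0336, 0.0363 and 0.224 CPM in empty vector replicates 1, 2 and 3, and at 0.0378 CPM in the WT library. Nfe2l2 lay at 145, 140 and 124 CPM in the fusion replicates, against 125, 123 and 115 CPM in the empty vector replicates, and at 113 CPM in WT. Which of these reads came from the construct was not tested. Gene reads per library came to between 26368182 and 59597170, lowest in fusion replicate 3, so 0 counts would still allow 0.0503 to 0.114 CPM. The lanes of both libraries numbered 3 were not those of the other libraries. Of 8 mesenchymal markers all reached 1 CPM, with a summed level of 12600 to 19201 CPM in fusion libraries, 11787 to 20597 CPM in empty vector libraries and 20006 CPM in WT. Of 12 prostate epithelial markers 6 reached 1 CPM in any library, among them Krt19, while the epithelial adhesion gene Epcam stayed at 0.0908 to 0.549 CPM over the fusion and empty vector libraries. The epithelial keratin Krt8 averaged 1.19 CPM with the fusion, 1.23 CPM with empty vector and 0.492 CPM in WT, so by these markers the epithelial label shows weakly. The summed prostate list was 126 to 166 CPM with the fusion, 149 to 175 CPM with empty vector and 165 CPM in WT. Sums of 6 immune markers (2.06 to 3.34 CPM with the fusion, 1.53 to 2.7 CPM with empty vector, 0.984 CPM in WT; Adgre1 and Cd3e at 0 counts) and of 5 endothelial markers (0.796 to 0.98, 0.599 to 0.973 and 1 CPM) were low. Of 37 mitochondrial genes 12 had 0 counts, among them mt-Co3 and mt-Atp8, so their sum does not cover every mitochondrial mRNA. The 37 summed to 29095 to 61393 CPM with the fusion, 28019 to 49699 CPM with empty vector and 39430 CPM in WT. The part of these differences in the results was not tested, and in bulk RNA a change in the number of cells cannot be told apart from a change in RNA per cell.

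**Figure D1:**
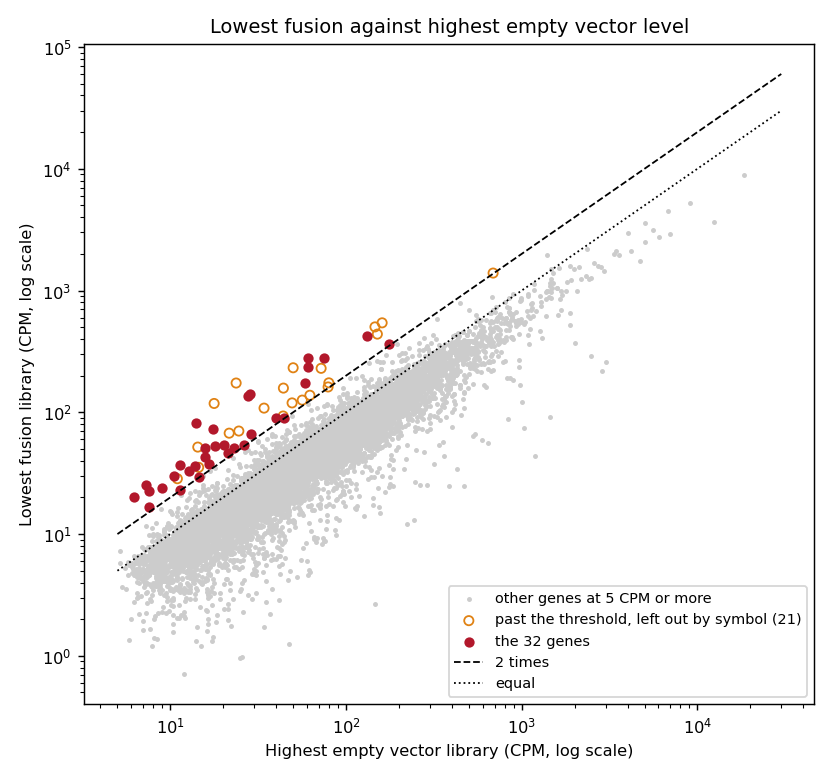
Lowest of the 3 fusion libraries (vertical axis) against highest of the 3 empty vector libraries (horizontal axis), both in CPM on log scales, for the 10496 genes at 5 CPM or more in each empty vector library. The 32 genes (filled red) and the 21 genes set aside by symbol (open orange) lie above the dashed line of 2 times, while most other genes lie around or below the dotted line of equality.

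Across the 32 genes the mean fusion CPM was 2.35 to 10.4 times the mean empty vector CPM, with a median of 4.33, beside a median of 0.982 over the 10496 expressed genes. The ratio was at least 3 in 28 of them, at least 4 in 20 and at least 5 in 12. Every fusion library lay above every empty vector library in all 32, as the rule requires; the same held for 678 of the 10496 genes, or 6.46%. All 32 were also called higher by edgeR's quasi-likelihood fit over 16731 genes, where 1.69% of genes were called higher and 0.353% lower. The same 32 were called higher with the replicate block (7.63% of genes higher, 5.5% lower) and by DESeq2 (3.72% higher, 1.79% lower), and nothing is read from these calls because the rule used the same contrast. The genes just inside the threshold of 2 were Cd24a, with a ratio of lowest fusion to highest empty vector of 2.03, and Lyn and Fam189a2, each with 2.04. Just outside it were Megf9 and Kcnab1, each with 1.96, and Mkx with 1.95. Megf9 lay at 37.7, 39.7 and 35 CPM in fusion replicates 1, 2 and 3, against 17.9, 14 and 10 CPM in empty vector replicates 1, 2 and 3. Kcnab1 lay at 40.2, 38.6 and 33 CPM in the fusion replicates, against 10.2, 16.9 and 15.9 CPM in the empty vector replicates. Mkx lay at 31.2, 48.9 and 29.8 CPM in the fusion replicates, against 11.4, 15.2 and 8.66 CPM in the empty vector replicates. These genes, too, had no overlap between the groups, so the threshold cuts through a run of similar values. Close to the limit of 5 CPM lay Gfpt2, with 5.02 CPM in its lowest empty vector library, and Panx1, with 5.1 CPM. Counts were not thin even there: the lowest count of any of the 32 genes in any library was 146.

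**Figure D2:**
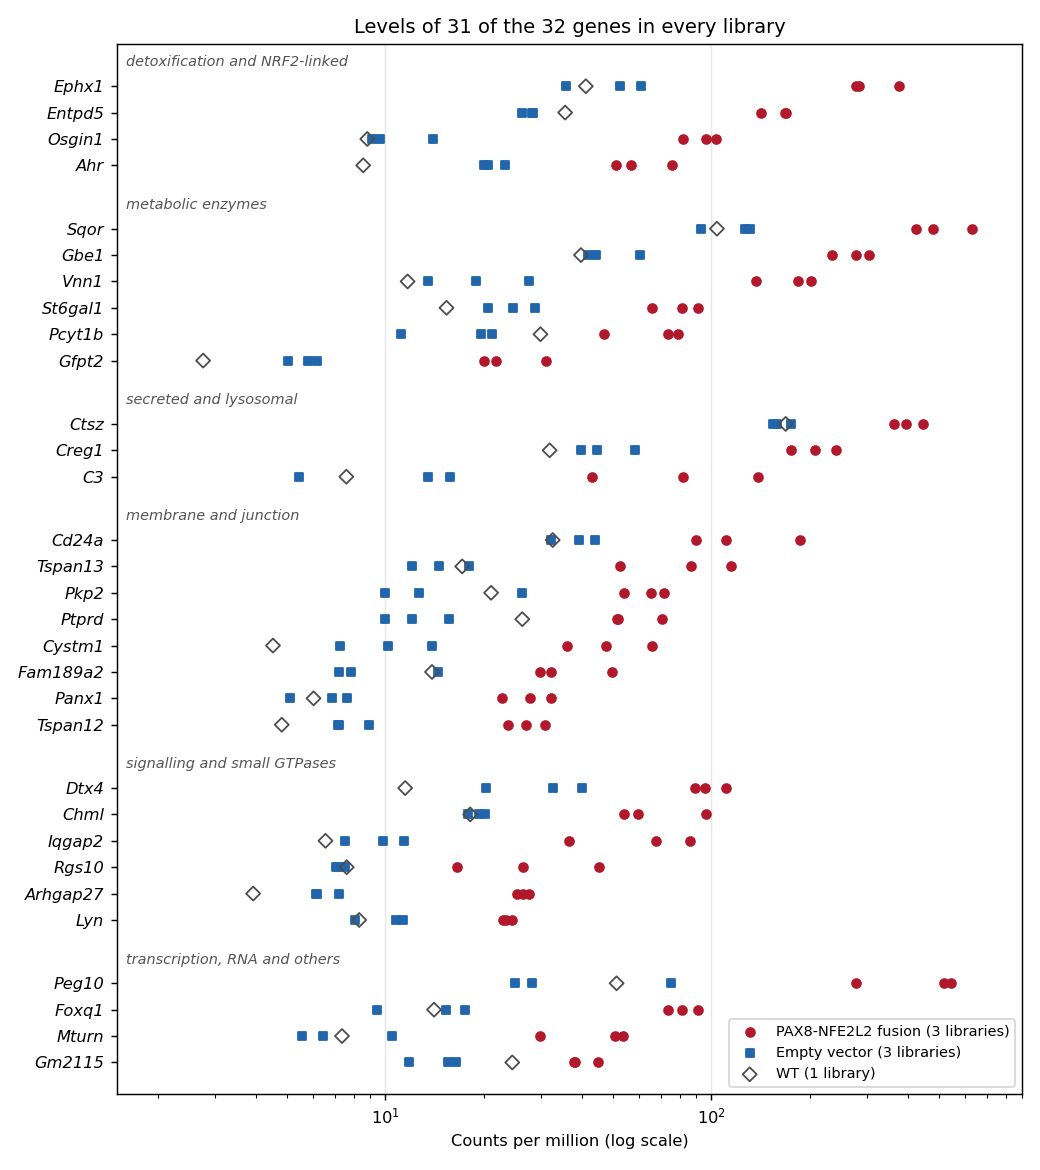
Level of 31 of the 32 genes in CPM on a log scale, with 1 row per gene, grouped by known function. Filled red circles are the 3 fusion libraries, filled blue squares the 3 empty vector libraries and open diamonds the WT library, and in every row the red circles lie to the right of all blue squares and of the diamond.

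Detoxification genes and genes known to be linked to NRF2 made up 4 of the 32 genes. The function groups were made with the gene names known, and Gbe1, a reported NRF2 target, stands under metabolism. The ratios are the values that the rule used, so their order is a description only. Osgin1, Entpd5 and Ephx1 stand in a list of textbook NRF2 targets used here, with ratios of lowest fusion to highest empty vector library of 5.85, 5.02 and 4.54.
Osgin1 (ENSMUSG00000074063, chromosome 8:119434124-119446256, plus strand, GRCm38), an oxidative stress-induced growth inhibitor, lay at 103, 81.6 and 96.4 CPM in fusion replicates 1, 2 and 3, against 14, 9.6 and 9.1 CPM in empty vector replicates 1, 2 and 3, and at 8.8 CPM in WT. Its means were 93.9 ± 11.1 CPM with the fusion and 10.9 ± 2.67 CPM with empty vector (SD, n = 3 each), a ratio of 8.62. The WT value lay just under the lowest empty vector library in plain CPM, and inside the empty vector range with TMM factors.
Entpd5 (chromosome 12:84373857-84409029), an endoplasmic reticulum nucleotidase that supports glycoprotein folding, lay at 142, 169 and 168 CPM in the fusion replicates, against 28.3, 28.1 and 26.2 CPM in the empty vector replicates, and at 35.6 CPM in WT. The empty vector libraries were nearly equal here, and WT was above all 3 of them. The ratio of means was 5.8.
Ephx1 (chromosome 1:180976210-181020904), microsomal epoxide hydrolase, which turns reactive epoxides into diols, lay at 283, 377 and 277 CPM in the fusion replicates, against 52.5, 60.9 and 35.8 CPM in the empty vector replicates, and at 41.2 CPM in WT. Its ratio of means was 6.28, and WT fell inside the empty vector range.
Ahr (chromosome 12:35497974-35535038), the aryl hydrocarbon receptor, is a ligand-activated transcription factor of foreign compound metabolism whose gene has been reported to be regulated by NRF2 in mouse cells. It lay at 50.9, 75.8 and 56.8 CPM in the fusion replicates, against 20.6, 23.2 and 20 CPM in the empty vector replicates, and at 8.55 CPM in WT. The groups order as fusion, empty vector and WT without overlap, with a fusion to empty vector ratio of means of 2.88. The exons of Ahr overlap those of Gm48236 on the other strand, and since the strand setting of the counting is not given, reads there cannot be assigned with certainty.

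To set these levels beside the promoter sequences, the core of the antioxidant response element, TGACNNNGC, was searched on both strands of windows from 250 bases before to 50 bases after RefSeq transcript starts (GRCm38.p6). A gene can have more than 1 start, with 32851 windows for 27025 genes, and a window can lie inside the gene bounds given above, which span all GENCODE transcripts. Windows matched 21 of the 32 genes, and a gene counts once if any of its windows holds the core. The core was found in 1 of the 21, Ctsz, beside 14% of all genes with a window and 17.2% of the 8007 of these that were expressed. A looser core, TGANNNNGC, which leaves the base after TGA free, includes every match of TGACNNNGC. It was found in 11 of 21, beside 45% of all genes with a window and 48.2% of the expressed ones. TGACTCAGC was found in 0 of 21, beside 0.503% of all. These shares describe the letters of short windows, and elements farther away were not searched. The stretches below show the Ctsz match and, for comparison, the matches of Osgin1 and Sqor to the looser core. Osgin1 had the highest ratio of lowest fusion to highest empty vector library, and Sqor the highest mean fusion level. The stretches are written on the gene's strand, with the match in capitals. In Ctsz (chr2:174439137-174439197, minus strand) and Osgin1 (chr8:119437022-119437082, plus strand) the core reads on the opposite strand to the gene. In Sqor (chr2:122771594-122771654, plus strand) it reads on the gene's own strand. Read on the opposite strand, the Osgin1 match differs from TGACTCAGC only in the base after TGA. The 0 of 21 for TGACTCAGC does not count it.
Ctsz: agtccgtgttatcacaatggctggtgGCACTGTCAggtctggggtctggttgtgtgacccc
Osgin1: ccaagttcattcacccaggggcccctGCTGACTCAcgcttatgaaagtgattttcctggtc
Sqor: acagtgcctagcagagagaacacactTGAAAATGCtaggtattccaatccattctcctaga
The matches begin 132, 99 and 93 bases before the RefSeq transcript start of their window in Ctsz, Osgin1 and Sqor. In Osgin1 and Sqor that start lies downstream of the first base of the GENCODE gene.

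Of the 32 genes 6 encode enzymes of sulfide, sugar, lipid and pantetheine metabolism, with ratios of means between 3.22 and 8.69.
Sqor (chromosome 2:122765237-122809569), the mitochondrial enzyme that starts the oxidation of hydrogen sulfide, had the highest mean fusion level of the 32 genes. It lay at 425, 479 and 628 CPM in the fusion replicates, against 93.2, 127 and 131 CPM in the empty vector replicates, and at 104 CPM in WT. Replicate 3 was the highest library in both groups, the ratio of means was 4.36, and WT fell among the empty vector libraries.
Gbe1 (chromosome 16:70313949-70569716), the glycogen branching enzyme, is a reported NRF2 target in mouse skeletal muscle. It lay at 277, 304 and 235 CPM in the fusion replicates, against 44.3, 41.9 and 60.4 CPM in the empty vector replicates, and at 39.8 CPM in WT. The ratio of means was 5.56.
Vnn1 (chromosome 10:23894688-23905343) encodes pantetheinase, a membrane-anchored enzyme that releases cysteamine from pantetheine. It lay at 137, 184 and 202 CPM in the fusion replicates, against 13.5, 27.6 and 19 CPM in the empty vector replicates, and at 11.7 CPM in WT. Its ratio of means of 8.69 was the second highest of the 32, after Peg10.
Pcyt1b (chromosome X:93654863-93749951) encodes an isoform of the enzyme that limits phosphatidylcholine synthesis. It lay at 79.1, 73.4 and 46.7 CPM in the fusion replicates, against 21.3, 19.7 and 11.2 CPM in the empty vector replicates, and at 29.9 CPM in WT. Replicate 3 was the lowest library in both groups, and WT was above every empty vector library.
Gfpt2 (chromosome 11:49794178-49838613), an isoform of the enzyme that feeds glucose into the hexosamine pathway, lay at 21.9, 31 and 20.1 CPM in the fusion replicates, against 5.02, 5.79 and 6.19 CPM in the empty vector replicates. At 2.76 CPM it had the lowest WT level of the 32 genes.
St6gal1, a sialyltransferase of the Golgi, had 79.4 ± 12.8 CPM with the fusion and 24.6 ± 4.1 CPM with empty vector (SD, n = 3 each), with 15.4 CPM in WT.

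Secreted and lysosomal proteins made up 4 of the 32 genes, of which 3 are described.
Ctsz (chromosome 2:174427493-174439039), the lysosomal cysteine protease cathepsin Z, lay at 395, 447 and 363 CPM in the fusion replicates, against 159, 175 and 154 CPM in the empty vector replicates, and at 169 CPM in WT. It was the most abundant of the 32 genes per length in both groups, at 279 CPM per kb of exon with the fusion and 113 CPM per kb with empty vector, and its ratio of means of 2.47 was the second lowest. Its exons overlap those of Nelfcd on the other strand.
Creg1 (chromosome 1:165763746-165775308), a glycoprotein of lysosomes, lay at 175, 208 and 241 CPM in the fusion replicates, against 44.7, 58.4 and 39.8 CPM in the empty vector replicates, and at 31.9 CPM in WT. Its ratio of means was 4.37.
C3 (chromosome 17:57203970-57228136), the central complement component, had the least even fusion libraries of the 32 genes. It lay at 82.1, 139 and 43.1 CPM in the fusion replicates, against 5.45, 15.8 and 13.5 CPM in the empty vector replicates, and at 7.59 CPM in WT. Its highest fusion library was 3.22 times its lowest, and the ratio within a replicate number ran from 15.1 in number 1 to 8.79 in number 2 and 3.2 in number 3.

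Membrane and junction proteins were the largest group, with 8 genes and ratios of means between 3.36 and 5.68.
Cd24a (chromosome 10:43578284-43584265), a small glycoprotein anchored to the cell surface, lay at 89.6, 111 and 187 CPM in the fusion replicates, against 39.2, 32.1 and 44.1 CPM in the empty vector replicates, and at 32.6 CPM in WT.
Tspan13 (chromosome 12:36014557-36042500), a tetraspanin, lay at 52.6, 86.7 and 115 CPM in the fusion replicates, against 12.1, 14.6 and 18.1 CPM in the empty vector replicates, and at 17.2 CPM in WT. In both genes replicate 3 was the highest library of each group.
Ptprd (chromosome 4:75941238-78211961), a receptor-type tyrosine phosphatase, lay at 51.7, 70.8 and 51.3 CPM in the fusion replicates, against 15.7, 12.1 and 10 CPM in the empty vector replicates. With 26.3 CPM in WT, or 2.09 times the empty vector mean, it had the highest WT level of the 32 genes relative to empty vector. Its exons overlap those of B230208B08Rik on the other strand.
Fam189a2 (chromosome 19:23972750-24031019), which encodes a membrane protein, lay at 32.1, 29.7 and 49.5 CPM in the fusion replicates, against 14.5, 7.19 and 7.83 CPM in the empty vector replicates, and at 13.9 CPM in WT. Here empty vector replicate 1 stood above the other two.
Cystm1 (chromosome 18), a small membrane protein rich in cysteine, lay at 36, 47.6 and 65.9 CPM in the fusion replicates, against 7.28, 10.2 and 13.9 CPM in the empty vector replicates, and at 4.52 CPM in WT. Its ratios within a replicate number were close to each other, 4.95, 4.68 and 4.74.
Pkp2, a desmosome protein, had 63.5 ± 8.87 CPM with the fusion and 16.3 ± 8.66 CPM with empty vector (SD, n = 3 each), with 21.1 CPM in WT, and its empty vector replicate 3 stood apart at 26.2 CPM. Panx1, a channel protein that releases ATP, had 27.6 ± 4.78 CPM with the fusion, 6.53 ± 1.29 CPM with empty vector and 6.02 CPM in WT. Tspan12, another tetraspanin, had 27.2 ± 3.59 CPM with the fusion, 7.77 ± 0.992 CPM with empty vector and 4.81 CPM in WT, and its exons overlap those of Gm30270 on the other strand.

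Signalling proteins and regulators of small GTPases also numbered 6.
Dtx4 (chromosome 19:12466338-12501454), an E3 ubiquitin ligase of the Deltex family, lay at 95.3, 111 and 89 CPM in the fusion replicates, against 20.4, 40 and 32.6 CPM in the empty vector replicates. At 11.5 CPM in WT, or 0.372 of the empty vector mean, it had the lowest WT level of the 32 genes relative to empty vector.
Chml (chromosome 1:175682237-175692901), an escort protein that presents Rab GTPases for prenylation, lay at 53.9, 96 and 59.5 CPM in the fusion replicates, against 17.9, 20.2 and 19.4 CPM in the empty vector replicates, and at 18.2 CPM in WT.
Iqgap2 (chromosome 13:95627177-95891922), a scaffold that binds Rac and Cdc42, lay at 85.8, 67.8 and 36.6 CPM in the fusion replicates, against 11.4, 9.84 and 7.51 CPM in the empty vector replicates, and at 6.55 CPM in WT. Replicate 3 was the lowest of each group, and the ratio of means was 6.62.
Rgs10 (chromosome 7:128373621-128418758), which speeds the shutdown of G protein signalling, lay at 16.6, 26.4 and 45.2 CPM in the fusion replicates, against 7.52, 7.19 and 7.06 CPM in the empty vector replicates, and at 7.61 CPM in WT. The WT and empty vector libraries were nearly equal, while the highest fusion library was 2.73 times the lowest.
Arhgap27 (chromosome 11:103331497-103363692), a GTPase-activating protein, lay at 26.4, 27.5 and 25.4 CPM in the fusion replicates, against 6.14, 7.22 and 6.19 CPM in the empty vector replicates, and at 3.93 CPM in WT. Its exons overlap 2 antisense genes, Arhgap27os1 and Arhgap27os2.
Lyn (chromosome 4:3678115-3813122), a kinase of the Src family, had the lowest mean fusion level, with 24.5, 23 and 23.4 CPM in the fusion replicates, against 10.8, 11.3 and 8.06 CPM in the empty vector replicates, and 8.31 CPM in WT. Its ratio of means, 2.35, was the lowest of the 32, and its fusion libraries were the most even. Lyn overlaps Gm26857 on the other strand.

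The remaining 4 genes were Peg10, Foxq1, Mturn and Gm2115.
Peg10 (chromosome 6:4747306-4760517), an imprinted gene derived from a retrotransposon, lay at 544, 517 and 278 CPM in the fusion replicates, against 75.1, 28.1 and 25 CPM in the empty vector replicates, and at 51.2 CPM in WT. Its ratio of means of 10.4 was the highest of the 32, and its ratio of lowest fusion to highest empty vector was 3.7, with fusion replicate 3 well below the other fusion libraries and empty vector replicate 1 at 3 times empty vector replicate 3. By replicate number the ratios were 7.25, 18.4 and 11.1.
Foxq1 (chromosome 13:31556134-31560976), a forkhead transcription factor, lay at 81.5, 91.2 and 73.5 CPM in the fusion replicates, against 17.5, 15.3 and 9.4 CPM in the empty vector replicates, and at 14.1 CPM in WT. Its ratio of means was 5.84, and its exons overlap those of A530084C06Rik on the other strand.
Gm2115 (chromosome 7:84528954-84583531), listed as protein-coding, lay at 44.9, 37.9 and 38.2 CPM in the fusion replicates, against 15.6, 11.8 and 16.5 CPM in the empty vector replicates. WT had 24.5 CPM, which at 0.648 of the lowest fusion library was the nearest that WT came to the fusion range in any of the 32 genes. Gm44928 overlaps its exons on the other strand.
Mturn, named for a role in the maturation of neural progenitors in Xenopus, had 44.7 ± 12.9 CPM with the fusion and 7.49 ± 2.65 CPM with empty vector (SD, n = 3 each), with 7.36 CPM in WT. It overlaps Gm28402 on the other strand, and St6gal1, described above, overlaps BC106179.

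The rule did not use the WT library, but it set the lowest fusion library at least 2 times above every empty vector library. WT lay at or above the lowest fusion library in 0 of the 32 genes, beside 73.8% of expressed genes, and nothing is read from this since the rule shapes it. It lay below every empty vector library in 12 genes, inside the empty vector range in 15 and above it in 5. Over the 10496 expressed genes these shares were 28.2%, 57.5% and 14.4%, against 37.5%, 46.9% and 15.6% of the 32. WT was at least 1.5 times lower than the empty vector mean in 9 of the 32 (28.1%, beside 9.2% of expressed genes), namely Ahr, Arhgap27, C3, Cystm1, Dtx4, Gfpt2, St6gal1, Tspan12 and Vnn1. It was at least 1.5 times higher in 3 (9.38%, beside 2.66%), namely Gm2115, Pcyt1b and Ptprd. With TMM factors, which moved the WT to empty vector median of expressed genes by 0.11 on the log2 scale, the 9 became 7 (without C3 and St6gal1) and the 3 became 4 (with Fam189a2), beside 6.39% and 4.33% of expressed genes. The median WT to empty vector ratio of the 32 was 0.838, beside 0.934 over expressed genes, and with TMM 0.903 beside 1.01. WT is a single library, and the rule capped the empty vector values it is set against. The rule also held these values, but not WT, at 5 CPM or more, as for all 10496 genes. Of the 9, Gfpt2, C3 and Arhgap27 came close to that limit, at 5.02, 5.45 and 6.14 CPM in their lowest empty vector library. Ahr, Dtx4 and St6gal1 did not. The expressed genes were not matched to the 32 by level, so these shares carry no test. Among the 21 genes set aside by symbol, WT reached the lowest fusion library in 1, Cryab.

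**Figure D3:**
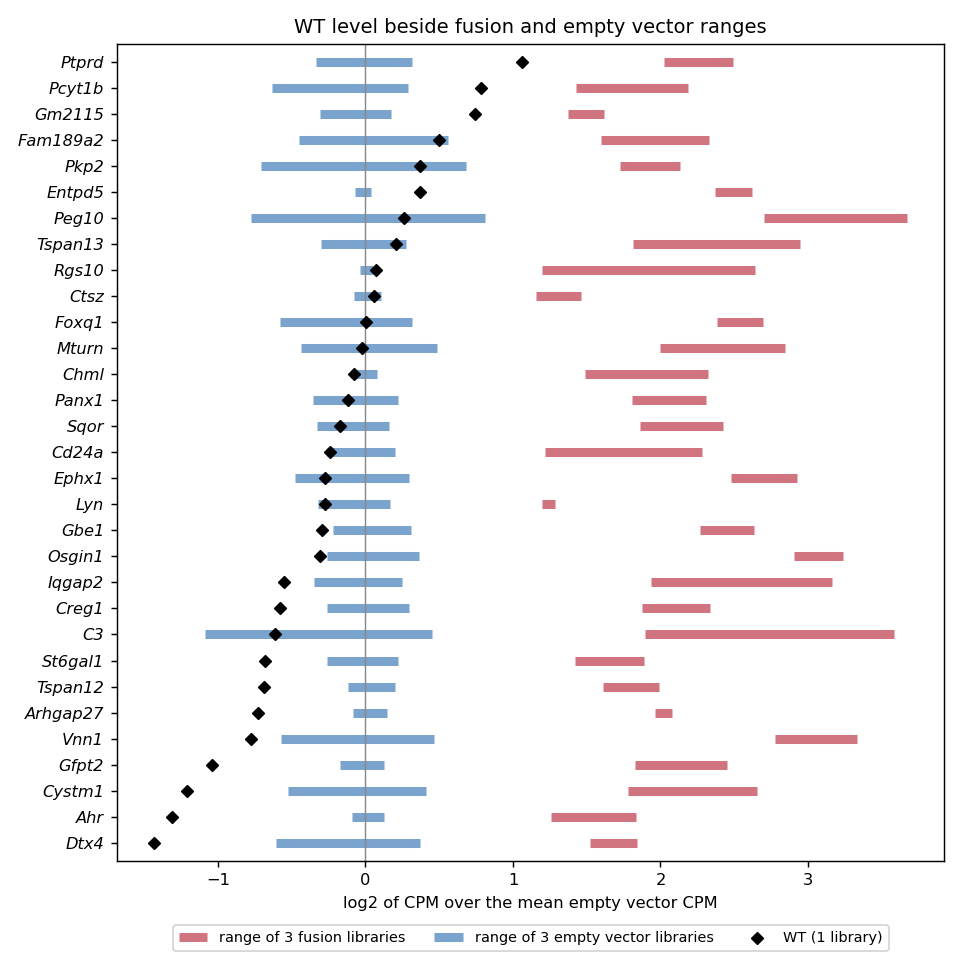
WT level of 31 of the 32 genes (black diamonds) beside the range of the 3 fusion libraries (red bars) and of the 3 empty vector libraries (blue bars), as log2 of CPM over the mean empty vector CPM. Genes run from Ptprd, where WT was 2.09 times the empty vector mean, to Dtx4, where it was 0.372 times, and no diamond reaches a red bar.

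The 32 genes differed in how even their libraries were. The highest fusion library was 1.06 to 3.22 times the lowest, with a median of 1.44. It was at least 2 times the lowest in 5 of 32 genes (beside 13.2% of expressed genes), C3, Cd24a, Iqgap2, Rgs10 and Tspan13. In the empty vector group the same span was 1.06 to 3, with a median of 1.49. It reached 2 in 6 of 32 genes (beside 14% of expressed genes), among them C3, Fam189a2, Peg10, Pkp2 and Vnn1. Fusion replicate 2 was the highest fusion library in 16 genes, replicate 3 in 9 and replicate 1 in 7. Replicate 3 was the highest library in both groups for Cd24a, Cystm1, Sqor and Tspan13 (4 of 32, beside 28.8% of expressed genes), and the lowest in both for 8 of 32 (beside 33.8%), among them Ctsz, Ephx1, Foxq1, Iqgap2, Pcyt1b, Peg10 and Ptprd. Within a replicate number the fusion to empty vector ratio of the 32 genes ran from 2.21 to 15.1 in number 1, from 2.04 to 18.4 in number 2 and from 2.31 to 11.1 in number 3, with medians of 4.35, 4.71 and 4.72. Over expressed genes the 3 medians were 0.985, 0.966 and 1.01.

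**Figure D4:**
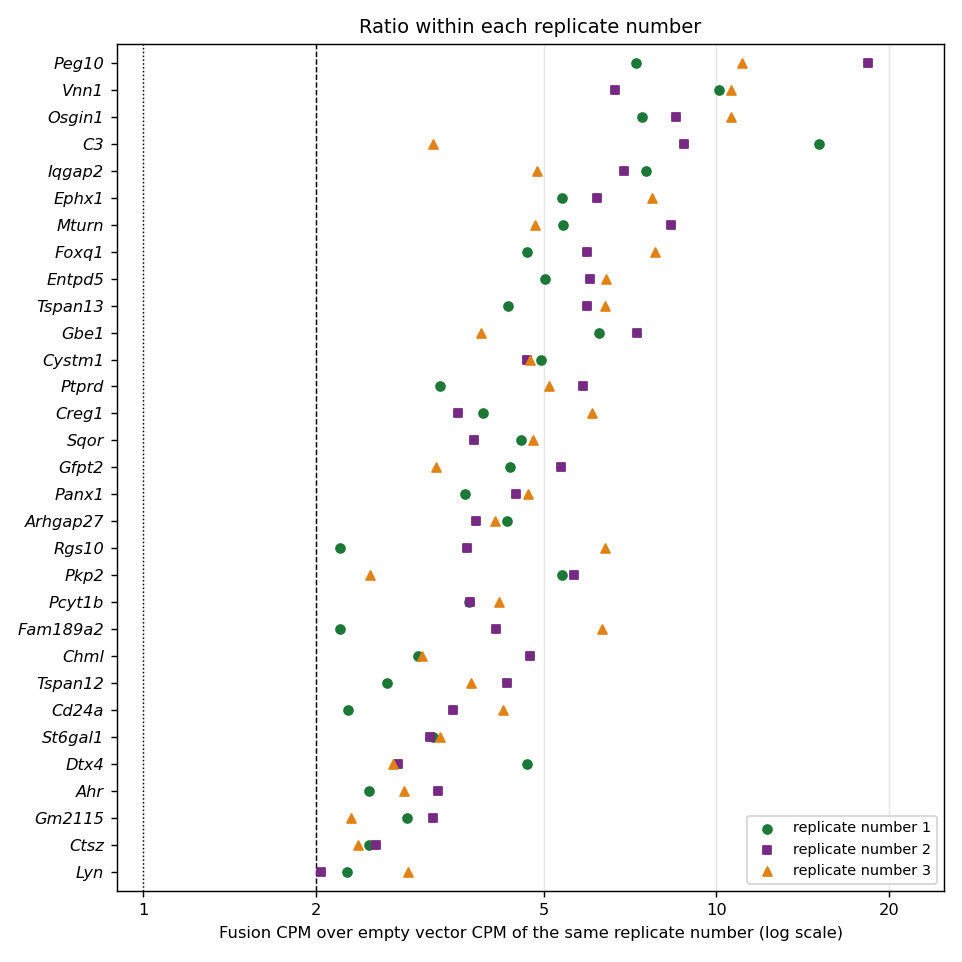
Fusion CPM over empty vector CPM of the library with the same replicate number, on a log scale, for 31 of the 32 genes in order of their ratio of means. Circles, squares and triangles are replicate numbers 1, 2 and 3, and all lie to the right of the dashed line at 2, from 2.04 for Lyn in number 2 to 18.4 for Peg10 in number 2.

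By position the 32 genes were scattered over 16 chromosomes, and all are annotated as protein-coding. The closest pair was Ahr and Tspan13, which lie 0.48 Mb apart on the minus strand of chromosome 12. Of genes lying wholly between them, 0 passed the filter on low counts. The next closest pair, Ephx1 and Chml on chromosome 1, was 5.28 Mb apart. Exons of 10 of the 32 genes overlap a gene on the other strand.

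Set against the wider pathway, 3 of the 32 genes stood in the list of 63 textbook NRF2 targets, and 12 more of that list passed the same thresholds but were set aside by symbol. Of the list 59 were tested, 24 rose and 0 fell with the fusion (Benjamini-Hochberg adjusted p under 0.05 in edgeR's quasi-likelihood fit), which is 40.7%, beside 1.69% of all 16731 genes called higher. The median log2 fold change of the 59 was 1.17, beside 0.01 over all tested genes. With the replicate number as a block 48 of the 59 rose and 0 fell, beside 7.63% of all genes called higher. Outside the 53 genes past the thresholds, 44 listed targets were tested, and 9 of them rose, or 33 with the replicate block. The median log2 fold change of the 44 was 0.81. Among the 9, and so among the 24, Gsta1, Gsta2 and Gsta3 had 0 to 0.0908 CPM in the empty vector libraries. These genes passed the filter on low counts only through the fusion libraries, so they could only be called higher. The list was drawn up with earlier results of these data known, so its counts are not independent evidence.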

How the data were processed

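Polyadenylated RNA of 7 libraries was sequenced as 50 bp single-end reads. The authors deposited raw counts for each gene and lane. STAR, HTSeq and the build GRCm38 are named by the submitters' processing notes. The sources used here give no versions, annotation release or strand setting. The 12 lane tables were summed by library, since a chi-square test between lanes of a library gave 0.981 to 1.01 per degree of freedom. CPM divide by the sum of gene rows. Reads outside genes (5.73 to 6.93%), ambiguous reads (1.22 to 1.48%), reads with several alignments (36.1 to 45.3%, highest in empty vector replicate 3) and the 92 spike-in rows stayed out of library sizes and tests. Paralogs can be undercounted for that reason, and intervals and limits cover counting error only. Symbols, positions and exon lengths come from GENCODE M21, which gave a symbol for 46005 of 46603 gene rows.

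The genes, lists and rules were chosen with earlier results of these data known. Of the 32, 31 are named and 1 is not reported here by name. Values per library are given for 26: the 12 with the highest ratio of lowest fusion to highest empty vector CPM, the 10 with the highest fusion mean, those in the NRF2 list, the 2 most abundant of each function group, the 5 with the highest WT to lowest fusion ratio, the 3 with the lowest WT to empty vector ratio, the 3 with the widest fusion spread and the 3 just inside the threshold. The 3 genes just outside it are given too. Function groups were made from textbook function. The fit used edgeR 4.0.16 in R 4.3.3 with TMM, filterByExpr (minimum count 10), robust quasi-likelihood F tests and Benjamini-Hochberg adjustment at 0.05 over 16731 genes. It was also run on simulated counts, with less spread between libraries than in these data and no replicate effect. That run does not measure the error rates of the fit here. Alternatives were DESeq2 1.42.0, other scaling, other thresholds, no filter, a replicate block and leaving out libraries.

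Same-numbered fusion and empty vector libraries deviated together from their group means (r = 0.658, 0.629 and 0.609 over genes on the log2(CPM + 0.5) scale), so the numbers may pair the samples. The main fit had no term for this pairing, and its counts ignore it. Only the fit with the replicate block took it up. No label gives a shared batch. Both libraries numbered 3 had 1 lane each, not among the lanes of the other libraries, which had 2 each. The spread behind each p-value is that between these libraries and may be technical.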

Additional observations from a re-analysis of the deposited data

How the results depend on the processing

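The rule fixed the direction of the 32 genes in these libraries, so their fold changes in other fits are no sign of stability. Of their calls 18 to 30 remained when 1 library was left out, fewest in the absence of empty vector replicate 2. The rule gave 31 genes with TMM or DESeq2 size factors, all among the 32. It gave 18 at a minimum of 10 CPM, 76 at 1.5 times, 12 at 3 times and 53 with all symbols kept. Leaving out 1 library gave 34 to 55 genes, most without fusion replicate 3, and leaving out replicate 3 of both groups gave 66. All 32 were among them each time. Leaving out a library can only loosen the rule, so the 32 had to remain and the count could not fall. Genes called in either direction numbered 341, 530 without a filter (397 higher, 133 lower), 2196 with the replicate block (1276 higher, 920 lower), 922 with DESeq2 (622 higher, 300 lower) and 133 to 384 with 1 library left out, with 196 in the absence of fusion replicate 1, 148 of fusion replicate 2 and 133 of empty vector replicate 2. Listed NRF2 targets that rose numbered 48 with the replicate block, 38 with DESeq2 and 15 to 22 with 1 library left out, lowest without fusion replicate 2. The genes above every empty vector library in WT were 8 in place of 5 with TMM (23% of expressed genes in place of 14.4%), and those below every one were 10 in place of 12 (18.8% of expressed genes in place of 28.2%). With 1 empty vector library left out the genes above were 6 to 8 and those below 14 to 16, both most without replicate 3. Leaving out a library can only narrow the empty vector range, so neither count could fall. The shares of expressed genes were not computed for these settings, and nothing is read from the counts. The looser core was in the windows of 11 genes and TGACTCAGC in those of 0, in place of 1. The replicate block changed no call of the 32 genes.

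Depth limits none of the 32 genes by itself, since their counts were 146 or more in every library. The limits are 3 libraries a group, 1 WT library, and replicates whose independence the labels do not give.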
